A study of Drosophila melanogaster with 9 samples.

Results

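The nuclear genes for mitochondrial ribosomal proteins were taken as the rows of the count table whose gene name starts with mRpL (large particle of the ribosome) or mRpS (small particle). This rule gave 71 genes, 45 mRpL and 26 mRpS, of 13937 genes in the table. All 71 passed the filter on low counts, which left 8981 genes for testing. RNA-Seq of polyA RNA was done in S2, an embryonic *Drosophila melanogaster* cell line with features of hemocytes (blood cells). The cells had been serum-depleted for 16 h and then received 100 nM DILP2, 100 nM DILP5 or the solvent alone (vehicle, the mock treatment of the labels) for 1 h. DILP2 and DILP5 are *Drosophila* insulin-like peptides that act through the insulin receptor InR. Each condition had 3 libraries, lettered A, B and C. All 9 come from 1 cell line and 1 time point, and the labels do not say that the libraries of a condition came from separate cultures, so p-values measure only the spread between these libraries, which may be technical.

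The mitochondrial ribosome translates the few messenger RNAs encoded by mitochondrial DNA, all of which code for subunits of the respiratory chain and ATP synthase. Its ribosomal RNAs are mitochondrial, whereas all its proteins are encoded in the nucleus, made in the cytosol and imported. Some of these proteins are relatives of bacterial ribosomal proteins and others occur only in mitochondria. In the classes assigned here to each gene, 44 of the 71 genes encode proteins with a bacterial relative and 27 encode mitochondria-specific proteins. "Large" and "small" follow the gene names here, although the mammalian counterparts of mRpS30 and mRpS18A were placed on the large particle in ribosome structures. According to the BDGP6 annotation, 12 of the genes lie on chromosome arm 2L, 12 on 2R, 17 on 3L, 19 on 3R and 11 on X. They are short, with a median exonic length of 783 bp, against 2099 bp for the other genes tested.

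The libraries held between 28365854 and 38557706 counts, and the scaling factors computed by TMM (a normalization to the bulk of genes) were between 0.979 and 1.03. The common biological coefficient of variation was 6.29%. Of 6 hemocyte markers, 5 (srp, Hml, Pxn, crq and ush) passed the filter and NimC1 did not. Of these 5, srp and ush were lower with each DILP. Of 8 markers of nerve, muscle, fat body and germ cells, 4 passed the filter and 0 were called in any comparison by edgeR or DESeq2, or had an unadjusted p under 0.05. Among them, elav was at 69.7 ± 2.77 CPM (counts per 1000000) with DILP2, 67.8 ± 3.84 CPM with DILP5 and 68.4 ± 3.87 CPM with vehicle (SD, n = 3 each). The part of any of these markers in the results below was not tested.

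The 71 genes were expressed at moderate levels. With vehicle, they had between 1.54 and 158 CPM, with a median of 21.8 CPM, and their counts in single libraries were from 48 to 6600. Levels of different genes were compared per kb of exonic length. On this scale the median gene had 26.2 CPM per kb with vehicle, and the highest was mRpL12, the relative of the bacterial stalk protein that recruits translation factors, at 108 ± 6.46 CPM per kb (SD, n = 3). It was followed by mRpS30 at 76.2 ± 3.02 CPM per kb and mRpS22 at 62.2 ± 1.20 CPM per kb. mRpL28 at 60.5 ± 1.98 CPM per kb differed from mRpS22 by less than its own SD, though by more than that of mRpS22. In contrast, mRpL12, mRpS30 and mRpS22 stood apart from each other by more than their SDs. At the low end were mRpS21 at 9.80 ± 1.41, mRpL21 at 9.26 ± 0.47 and mRpL33 at 4.42 ± 0.86 CPM per kb. mRpS21 and mRpL21 differed by less than the SD of mRpS21, and mRpL33 was lower than both. The genes of this one ribosome thus covered a wide range of mRNA level per unit of length. The lengths were merged exons of BDGP6, and the annotation behind the counts is not given, so the order depends on the lengths taken. mRpL21, at 15.7 CPM with vehicle, was among the lowest only after division by its 1696 bp.

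As a group, the genes had slightly more RNA with either DILP than with vehicle. Their summed level was 2133, 2012 and 2154 CPM in DILP2 libraries A, B and C. It was 2169, 2086 and 2061 CPM in DILP5 libraries A, B and C, against 1890, 2015 and 1898 CPM in vehicle libraries A, B and C. The DILP5 libraries thus all lay above the vehicle libraries, whereas DILP2 library B was just below vehicle library B. The mean sums were 2100 ± 76.9 CPM with DILP2, 2106 ± 56.7 CPM with DILP5 and 1934 ± 69.7 CPM with vehicle (SD, n = 3 each). The genes made up 0.201 to 0.212% of the counts in DILP2 libraries, 0.202 to 0.216% in DILP5 libraries and 0.190 to 0.207% in vehicle libraries. In a bulk sample, a difference in the RNA of a cell and a difference in the mixture of cells cannot be told apart.

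The same order was seen gene by gene. In DILP2 libraries A, B and C, 68, 50 and 69 of the 71 genes were above their own vehicle mean, and in DILP5 libraries A, B and C, 69, 65 and 65 were. In vehicle libraries A, B and C, 16, 65 and 19 were. Of all other genes tested, between 48.6 and 50.7% were above the vehicle mean in any library. Vehicle library B therefore stood on the side of the DILP libraries for these genes. Genes in the same library are not independent, so these counts describe the libraries and add no replicates to the summed levels. The median log2 difference of the 71 genes from the vehicle mean was 0.15, 0.05 and 0.17 in DILP2 libraries A, B and C. It was 0.19, 0.11 and 0.09 in DILP5 libraries A, B and C, against -0.04, 0.08 and -0.05 in vehicle libraries A, B and C.

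**Figure D1:**
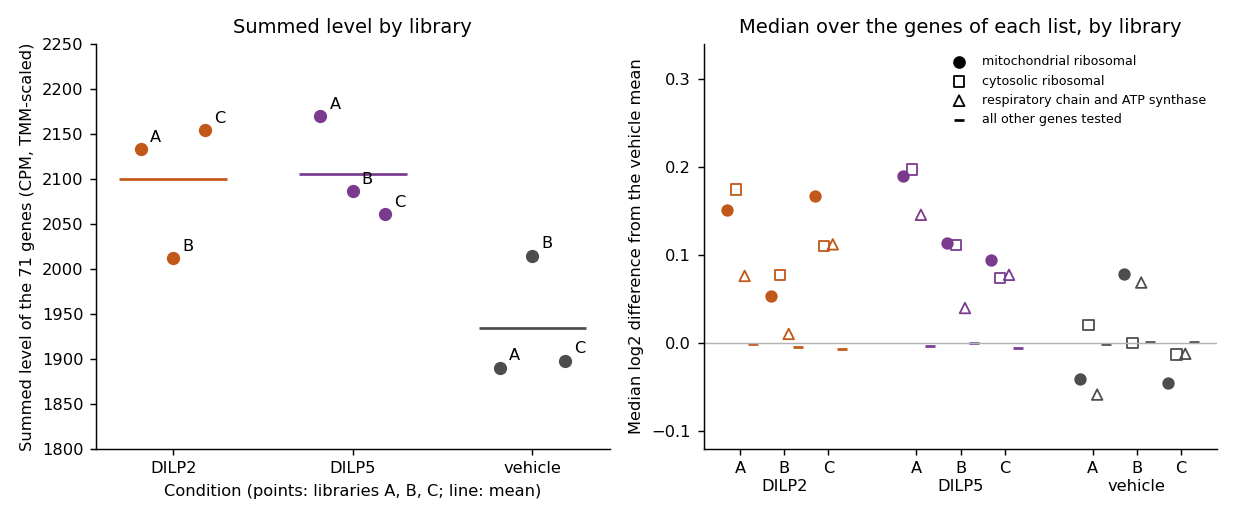
Left, summed level of the 71 mitochondrial ribosomal protein genes in CPM for each library (points lettered A, B and C) with the mean of each condition (line). The axis does not start at 0. The 3 DILP5 libraries lie above the 3 vehicle libraries, while DILP2 library B (2012 CPM) is just below vehicle library B (2015 CPM). Right, median log2 difference from the vehicle mean over the genes of 4 lists in each library. The mitochondrial ribosomal genes (filled circles) range from 0.05 to 0.19 in the DILP libraries and from -0.05 to 0.08 in the vehicle libraries, and the bars for all other genes are close to 0.

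To ask which single genes responded, each DILP was compared with vehicle with the quasi-likelihood test of edgeR, p-values were adjusted by Benjamini-Hochberg over all 8981 genes, and a gene was called at an adjusted p under 0.05. With DILP2, 8 of the 71 genes (11.3%) were higher, against 5.33% of all genes tested, and 0 were lower, against 5.59% of all genes. The genes called were mRpL19, mRpL21, mRpL36, mRpL39, mRpL49, mRpL52, mRpS14 and mRpS22. The median log2 fold change of the 71 genes was 0.12, a 1.09-fold difference, and 69 were above 0. Over all genes tested the median was -0.00 and 49.3% were above 0. At an unadjusted p under 0.05, 22 of the 71 genes (31.0%) were higher, against 11.9% of all genes, and 0 were lower. DESeq2 called 11 higher and 0 lower, and 7.59% of all genes with an adjusted p higher. The number higher was 1 when vehicle library A, vehicle library C or DILP2 library A was left out. For this and the later fits without 1 library, the share of all genes called is not given here. A loss of calls over all genes can therefore not be told from one particular to these genes.

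With DILP5, 8 of the 71 genes (11.3%) were higher, against 6.28% of all genes tested, and 0 were lower, against 6.78%. These were mRpL1, mRpL19, mRpL21, mRpL22, mRpL23, mRpL39, mRpS25 and mRpS35. The median log2 fold change was 0.13, a 1.09-fold difference, 69 genes were above 0, and the median over all genes tested was -0.00 with 49.5% above 0. At an unadjusted p under 0.05, 23 (32.4%) were higher, against 12.9% of all genes, and 0 lower. DESeq2 called 11 higher and 0 lower, and 8.46% of all genes higher. The number higher was 0 without vehicle library A or vehicle library C, 3 without DILP5 library A or B, and 4 without DILP5 library C. The comparisons of DILP2 and of DILP5 share the same 3 vehicle libraries, so genes called in each are not separate evidence.

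Averaging the DILPs against vehicle gave smaller errors. In this comparison 15 of the 71 genes (21.1%) were higher, against 8.02% of all genes, and 0 were lower, against 9.25%. Besides genes called with one or both DILPs, mRpL14, mRpL17, mRpL20 and mRpL44 passed the test here, while mRpS14 and mRpS35 did not (adjusted p = 0.074 and 0.064). The median log2 fold change was 0.13, a 1.10-fold difference. At an unadjusted p under 0.05, 31 genes (43.7%) were higher, against 14.4% of all genes, and 0 lower. DESeq2 called 15 higher and 0 lower, and 10.1% of all genes higher. The number higher was 3 without vehicle library A, 2 without vehicle library C and 8 without DILP2 library A. The median standard error of a log2 fold change was 0.07 with each DILP and 0.06 for their average, so that many differences of the size of the median could not be called singly at this depth and number of libraries.

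A count that needs no model was also made. All 3 DILP2 libraries lay above all 3 vehicle libraries for 23 of the 71 genes (32.4%), against 14.3% of all genes tested. For DILP5 this held for 28 genes (39.4%), against 16.2% of all genes. All 6 DILP libraries lay above the vehicle libraries for 15 genes (21.1%), against 10.4% of all genes.

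**Figure D2:**
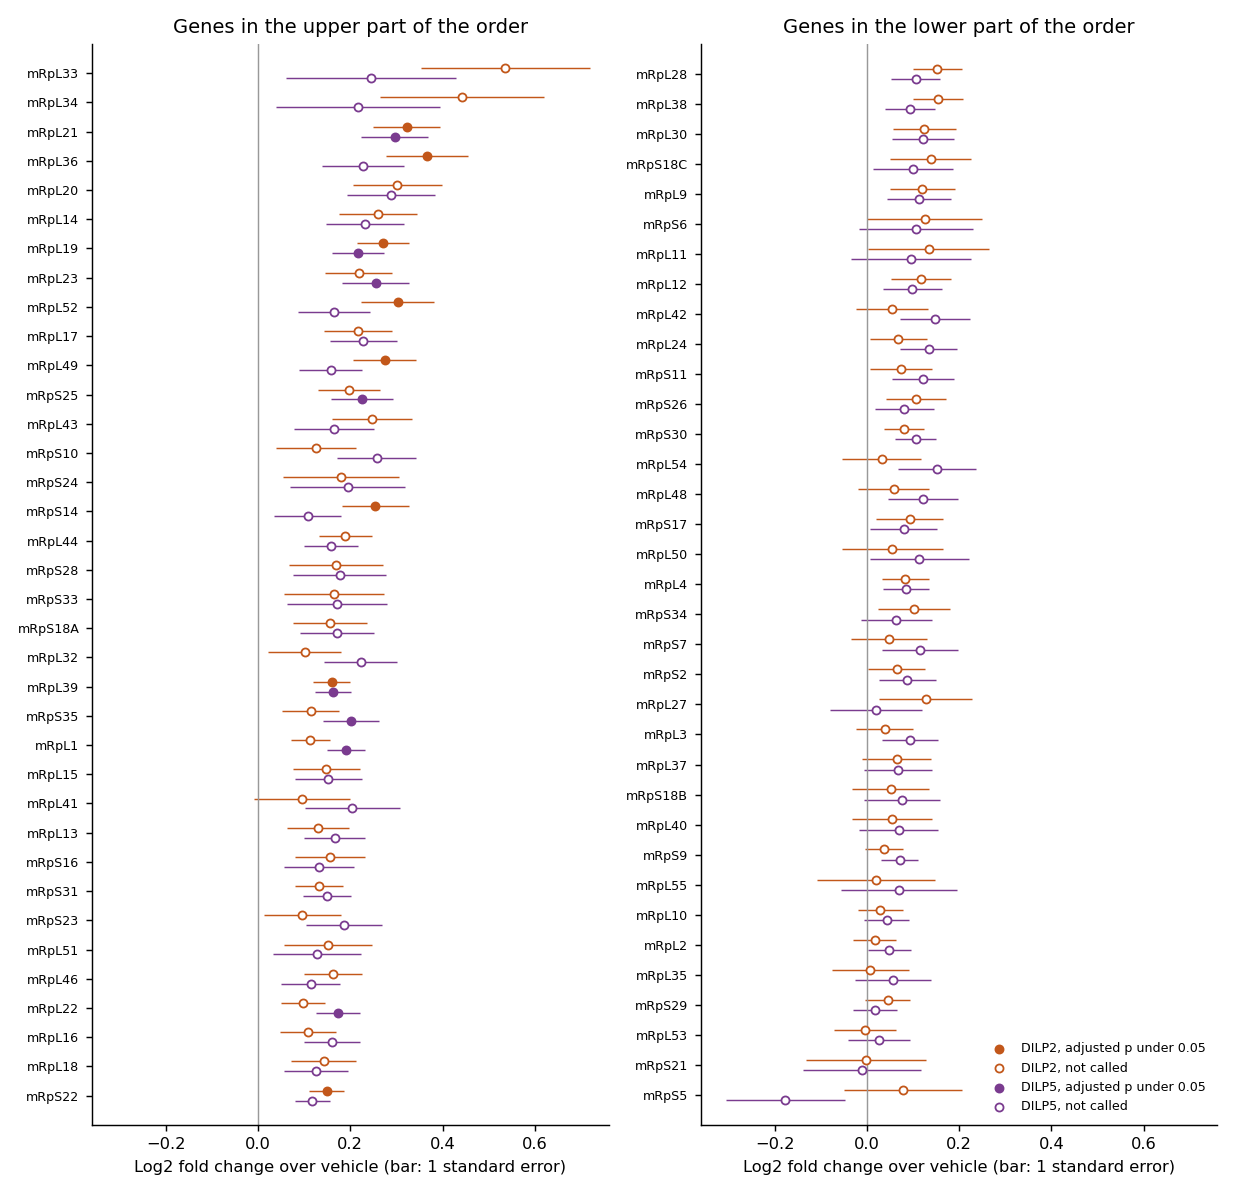
Log2 fold change over vehicle of each of the 71 genes with DILP2 (orange) and DILP5 (purple), ordered by the average of both, with bars of 1 standard error. Filled circles mark the 8 genes with DILP2 and the 8 with DILP5 that had an adjusted p under 0.05. Nearly all circles lie to the right of 0, and mRpS5 with DILP5, at -0.18, is the farthest to the left.

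The genes called encode proteins from several parts of the ribosome. mRpL21 (arm 3L), the relative of bacterial L21, had the largest average rise among called genes. It had 21.1, 18.8 and 18.9 CPM with DILP2 and 18.6, 18.8 and 20.4 CPM with DILP5, against 15.2, 16.6 and 15.2 CPM with vehicle. Each DILP library was above each vehicle library. Its log2 fold change was 0.32 ± 0.07 (SE) after DILP2 (adjusted p = 0.016) and 0.30 ± 0.07 after DILP5 (adjusted p = 0.020). For the average of the DILPs it was 0.31 ± 0.06 (adjusted p = 0.0065), a call made in each of the 9 fits that left out 1 library. With DILP2 alone the call was made in 6 of these 9 fits and with DILP5 alone in 5. mRpL21 was at the same time among the 3 lowest genes per kb and, at 1696 bp, longer than most of the others.

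mRpL19 (arm 3R), whose bacterial relative lies at the interface between the particles, was also called with each DILP. It had 32.2, 31.7 and 32.6 CPM with DILP2 and 28.7, 31.4 and 32.7 CPM with DILP5, against 26.2, 26.6 and 27.2 CPM with vehicle. The lowest DILP library of mRpL19 was above its highest vehicle library. The log2 fold change was 0.27 ± 0.06 after DILP2 (adjusted p = 0.012) and 0.22 ± 0.06 after DILP5 (adjusted p = 0.028). The DILP2 call and that of the average of the DILPs (0.24 ± 0.05, adjusted p = 0.0063) were made in all 9 fits without 1 library, and the DILP5 call in 4 of them.

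mRpL39 (arm 3L), a mitochondria-specific protein, showed a small change with little spread. Its level was 43.9, 43.0 and 43.6 CPM with DILP2 and 43.8, 43.6 and 43.5 CPM with DILP5, against 39.3, 39.5 and 38.2 CPM with vehicle. All libraries of both DILPs lay above the vehicle libraries. The log2 fold change was 0.16 ± 0.04 with each DILP (adjusted p = 0.026 with DILP2 and 0.020 with DILP5). The call was made in 3 of the 9 fits without 1 library with DILP2, with a highest adjusted p of 0.11, in 5 of 9 with DILP5 and in 8 of 9 on the average.

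Among the genes called with DILP2 but not DILP5, mRpL36 encodes one of the smallest ribosomal proteins of bacterial descent. Its levels were 18.7, 15.5 and 15.9 CPM with DILP2 and 15.9, 14.6 and 15.1 CPM with DILP5, against 12.9, 14.02 and 12.1 CPM with vehicle. All DILP libraries were above the vehicle libraries. For mRpL36 the log2 fold change was 0.37 ± 0.09 after DILP2 (adjusted p = 0.024) and 0.23 ± 0.09 after DILP5 (adjusted p = 0.12). mRpL52, a mitochondria-specific protein, had 17.3, 16.6 and 18.9 CPM with DILP2 and 17.1, 16.1 and 14.97 CPM with DILP5, against 14.04, 15.2 and 13.7 CPM with vehicle. The DILP2 libraries were all above the vehicle libraries, and DILP5 library C overlapped them. The fold changes of mRpL52 were 0.30 ± 0.08 after DILP2 (adjusted p = 0.031) and 0.17 ± 0.08 after DILP5 (adjusted p = 0.20). mRpL49, also mitochondria-specific, had 28.1, 25.04 and 24.7 CPM with DILP2 and 23.9, 24.6 and 23.3 CPM with DILP5, against 21.2, 22.9 and 20.3 CPM with vehicle. Its log2 fold change was 0.27 ± 0.07 after DILP2 (adjusted p = 0.026) and 0.16 ± 0.07 after DILP5 (adjusted p = 0.16). No library of either DILP overlapped those of vehicle for mRpL49.

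On the small particle, mRpS14 and mRpS22 were called with DILP2. mRpS22, mitochondria-specific and among the 3 highest genes per kb, had 93.8, 91.8 and 91.8 CPM with DILP2 and 91.2, 92.8 and 87.6 CPM with DILP5, against 82.8, 85.3 and 82.3 CPM with vehicle. All its DILP libraries lay above vehicle, and the log2 fold change was 0.15 ± 0.04 after DILP2 (adjusted p = 0.030) and 0.12 ± 0.04 after DILP5 (adjusted p = 0.065). mRpS14, a relative of a bacterial protein of the head of the small particle, had 23.5, 21.5 and 24.1 CPM with DILP2 and 21.4, 21.3 and 19.7 CPM with DILP5, against 18.8, 21.0 and 18.2 CPM with vehicle. The log2 fold change of mRpS14 was 0.25 ± 0.07 after DILP2 (adjusted p = 0.046), a call made in 3 of the 9 fits without 1 library, and 0.11 ± 0.07 after DILP5 (adjusted p = 0.37). In the BDGP6 annotation, 31.99% of the exons of mRpS14 lie opposite to Naa15-16, so reads of the pair may have been exchanged. Naa15-16 had log2 fold changes of 0.11 after DILP2 (adjusted p = 0.14) and 0.15 after DILP5 (adjusted p = 0.036).

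Among the genes called with DILP5 but not DILP2, mRpL1 corresponds to the bacterial protein of the L1 stalk, where spent tRNA leaves. It had 49.2, 48.4 and 50.7 CPM with DILP2 and 52.4, 52.0 and 52.0 CPM with DILP5, against 45.2, 47.4 and 44.5 CPM with vehicle. Its DILP5 libraries were all above its DILP2 libraries, and these above vehicle. The log2 fold change was 0.11 ± 0.04 after DILP2 (adjusted p = 0.11) and 0.19 ± 0.04 after DILP5 (adjusted p = 0.012), the DILP5 call being made in 7 of 9 fits without 1 library. mRpL22 and mRpL23 are relatives of bacterial proteins that line or surround the exit of the peptide tunnel. mRpL23 had 19.5, 16.4 and 17.3 CPM with DILP2 and 17.9, 18.5 and 18.2 CPM with DILP5, against 15.1, 15.7 and 14.96 CPM with vehicle. Its log2 fold change was 0.22 ± 0.07 after DILP2 (adjusted p = 0.079) and 0.25 ± 0.07 after DILP5 (adjusted p = 0.038). mRpL22 had 54.5, 57.4 and 58.0 CPM with DILP2 and 59.7, 57.8 and 61.7 CPM with DILP5, against 51.5, 55.8 and 51.7 CPM with vehicle. DILP2 library A overlapped vehicle for mRpL22, and its log2 fold changes were 0.10 ± 0.05 after DILP2 (adjusted p = 0.23) and 0.17 ± 0.05 after DILP5 (adjusted p = 0.033).

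The small particle genes called with DILP5 were mRpS25 and mRpS35, both mitochondria-specific. mRpS25 had 26.4, 23.9 and 25.6 CPM with DILP2 and 27.1, 25.1 and 25.2 CPM with DILP5, against 21.5, 23.9 and 20.9 CPM with vehicle. The log2 fold changes of mRpS25 were 0.20 ± 0.07 after DILP2 (adjusted p = 0.088) and 0.23 ± 0.07 after DILP5 (adjusted p = 0.048). For mRpS25, DILP2 library B and vehicle library B were nearly equal. mRpS35 had 44.3, 44.9 and 48.6 CPM with DILP2 and 51.3, 44.8 and 50.5 CPM with DILP5, against 41.1, 42.1 and 44.2 CPM with vehicle. Both DILP5 calls were near the threshold, since the adjusted p of mRpS35 was 0.049 (log2 fold change 0.20 ± 0.06, against 0.11 ± 0.06 and an adjusted p of 0.28 with DILP2), and they were made in 1 of 9 fits without 1 library for mRpS25 and in 2 of 9 for mRpS35.

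The genes called only for the average of the DILPs were mRpL14, mRpL17, mRpL20 and mRpL44. mRpL20, related to a bacterial protein needed early in the assembly of the large particle, had 14.1, 11.9 and 13.97 CPM with DILP2 and 14.01, 13.3 and 12.3 CPM with DILP5, against 10.5, 11.9 and 10.1 CPM with vehicle. Its average log2 fold change was 0.30 ± 0.08 (adjusted p = 0.031). mRpL14, related to a bacterial protein of the interface between the particles, had 36.2, 30.5 and 35.8 CPM with DILP2 and 33.9, 32.5 and 34.1 CPM with DILP5, against 26.5, 32.3 and 27.0 CPM with vehicle (average log2 fold change 0.25 ± 0.07, adjusted p = 0.040). In both genes vehicle library B was the highest vehicle library and overlapped DILP2 library B. mRpL17 had 27.7, 29.2 and 24.9 CPM with DILP2 and 26.5, 28.6 and 27.3 CPM with DILP5, against 22.1, 25.3 and 23.0 CPM with vehicle (average log2 fold change 0.22 ± 0.06, adjusted p = 0.034). Of its exons 23.6% lie opposite to CG34263, which had an average log2 fold change of 0.54 (adjusted p = 0.097). mRpL44, a mitochondria-specific relative of ribonuclease III, had 40.9, 37.3 and 41.2 CPM with DILP2 and 39.3, 38.9 and 38.7 CPM with DILP5, against 33.5, 37.6 and 33.7 CPM with vehicle. Vehicle library B of mRpL44 again overlapped DILP2 library B, and its average log2 fold change was 0.17 ± 0.05 (adjusted p = 0.035). The calls for the average were made in 2 to 4 of the 9 fits without 1 library for these 4 genes.

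**Figure D3:**
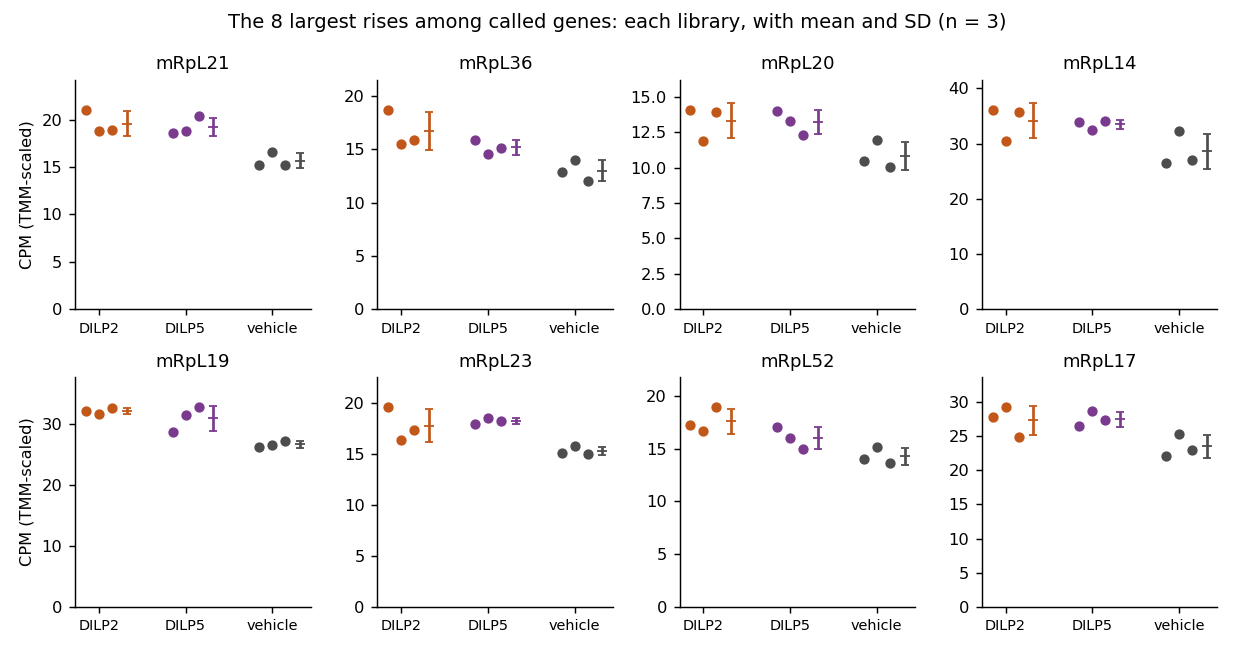
CPM in each library for the 8 called genes with the largest average log2 fold change, with DILP2 (orange), DILP5 (purple) and vehicle (grey), libraries A, B and C from left to right, and the mean with its SD (n = 3) to their right. All axes start at 0. For mRpL21, mRpL36, mRpL19 and mRpL23 every DILP library is above every vehicle library, whereas vehicle library B reaches DILP2 libraries for mRpL20, mRpL14 and mRpL17.

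Among genes that were not called, mRpL33 had the largest fold change with DILP2 and on the average, and the fewest reads. It had 2.30, 2.20 and 2.16 CPM with DILP2 and 2.14, 1.82 and 1.49 CPM with DILP5, against 1.34, 1.89 and 1.40 CPM with vehicle, that is 48 to 78 counts a library. The log2 fold change of mRpL33 was 0.54 ± 0.18 after DILP2 (adjusted p = 0.087) and 0.25 ± 0.18 after DILP5 (adjusted p = 0.43). mRpL12 and mRpS30, the highest genes per kb, did not pass the test either. mRpL12 had 84.5, 81.7 and 92.3 CPM with DILP2 and 91.9, 82.3 and 81.1 CPM with DILP5, against 76.8, 85.0 and 76.8 CPM with vehicle (log2 fold change 0.12 ± 0.06 with DILP2 and 0.10 ± 0.06 with DILP5). mRpS30 had 166, 161 and 175 CPM with DILP2 and 171, 171 and 169 CPM with DILP5, against 151, 161 and 163 CPM with vehicle (0.08 ± 0.04 and 0.11 ± 0.04). For both genes the vehicle libraries reached into the DILP2 libraries, and for mRpL12 also into the DILP5 libraries.

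Some of the 71 genes differed little between conditions. mRpS29, known in mammals as DAP3, a GTP-binding protein of the small particle, had 35.3, 35.8 and 37.6 CPM with DILP2 and 34.2, 36.7 and 35.8 CPM with DILP5, against 34.4, 35.2 and 35.9 CPM with vehicle. Its log2 fold changes were 0.04 with DILP2 (95% confidence interval -0.06 to 0.15) and 0.02 with DILP5 (-0.09 to 0.12). mRpS5, whose bacterial relative lies where mRNA enters the small particle, varied widely between the libraries of a condition. It had 44.9, 39.3 and 34.04 CPM with DILP2 and 38.6, 32.4 and 28.1 CPM with DILP5, against 36.8, 42.4 and 32.9 CPM with vehicle. In each condition mRpS5 was lowest in library C, and within each letter it was lower with DILP5 than with DILP2. Its log2 fold changes of 0.08 ± 0.13 after DILP2 and -0.18 ± 0.13 after DILP5 did not pass the test (adjusted p = 0.76 and 0.41). Besides mRpS5, the genes with a negative log2 fold change in any of these comparisons were mRpL53 (-0.00 with DILP2) and mRpS21 (-0.00 with DILP2 and -0.01 with DILP5).

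The comparison of DILP5 with DILP2 asks whether these peptides, given at the same dose and for the same time, differed in their effect on these genes. In the edgeR fit, 0 of the 71 genes passed the test in either direction, as did 0.0% of all genes tested, and DESeq2 also called 0. At an unadjusted p under 0.05 there were 0 of the 71 genes, against 208 of all 8981. The median log2 difference over the 71 genes, DILP5 over DILP2, was 0.00, and 39 were above 0. The smallest unadjusted p-values were 0.065 for mRpS14, 0.071 for mRpS5 and 0.088 for mRpL1, each from edgeR's quasi-likelihood test, and each gene had an adjusted p of 0.9998. The paper's own edgeR analysis of these libraries lists mRpS5 among the few genes that differed between the peptides, with a log2 fold change of like size. For mRpS5 the outcome of the test thus differed between the analyses, and the size of the estimate did not. The difference was -0.15 for mRpS14 (95% confidence interval -0.30 to 0.01), -0.25 for mRpS5 (-0.54 to 0.03) and 0.08 for mRpL1 (-0.01 to 0.17). For mRpL36 it was -0.14 (-0.33 to 0.05), so that a difference between the peptides as large as a good part of the DILP2 effect was not excluded by the interval, and for mRpL39 it was 0.00 (-0.08 to 0.09). Being called with 1 peptide and not the other was therefore not accompanied by a difference between the peptides that passed a test.

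The genes of the 2 particles and of the 2 origins had similar medians. On the average of the DILPs, 13 of 45 large particle genes (28.9%) and 2 of 26 small particle genes (7.69%) were called higher, against 8.02% of all genes, with median log2 fold changes of 0.13 and 0.12. By origin, 9 of 44 genes with bacterial relatives and 6 of 27 mitochondria-specific genes were called, with medians of 0.13 in both. The 9 called genes with bacterial relatives were all of the large particle (9 of 28), against 0 of 16 on the small particle, whose median was 0.11. In that class 3 of the 16 were higher at an unadjusted p under 0.05, and DESeq2 called 0 on the average. The difference between the classes was not tested, and the median standard error was 0.06 in the large particle class and 0.07 in the small particle class. By chromosome arm, 0 of 12 genes on 2L were called on the average, although all 12 were above 0, with a median of 0.09, and 2 had an unadjusted p under 0.05 (0 by DESeq2). On the other arms the count was 1 of 12 on 2R, 6 of 17 on 3L, 4 of 19 on 3R and 4 of 11 on X, of which the count on 2R (8.33%) was near the share of all genes.

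Because the 71 genes are short, their fold changes were set beside those of other genes of like length and level. Among the other genes tested, the log2 fold change fell with exonic length, with a median for the average of the DILPs of 0.06 in genes of up to 1139 bp, the shortest of 5 equal classes, and -0.05 in the class of the longest (from 4100 bp). In the shortest class the 58 mitochondrial ribosomal genes had a median of 0.13, and in the next class (1140 to 1733 bp) 12 of them had a median of 0.13, against 0.02 for the other genes there. Across genes, Spearman's rho between length and the average fold change was -0.28 for the 71 genes and -0.22 for 8871 others; genes in the same libraries are not independent, so this is a description only. The slope of the other genes' log2 level per doubling of length, relative to the vehicle mean, was from -0.05 to -0.01 in DILP2 libraries, from -0.06 to -0.00 in DILP5 libraries and from -0.02 to 0.02 in vehicle libraries. These ranges overlapped, with vehicle library B (-0.02), the vehicle library with the highest level of the 71 genes, below DILP2 libraries B and C and DILP5 library C.

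Within the 5th to 95th percentile of the members' length (483 to 1420 bp) and level, there were 1049 other genes. Their median log2 fold change was 0.05 with DILP2, 0.07 with DILP5 and 0.06 for the average, against 0.12, 0.13 and 0.13 for the 71 mitochondrial ribosomal genes. Above 0 were 68.9%, 73.3% and 72.5% of these other genes, against 97.2% of the 71 in each comparison. Of these other genes, 5.05% were called higher with DILP2, 7.34% with DILP5 and 9.34% on the average, against 11.3%, 11.3% and 21.1% of the 71. In the middle range of both length and level there were 25 of the 71 genes and 179 others. There the medians were 0.10 against 0.06 with DILP2, 0.11 against 0.07 with DILP5 and 0.10 against 0.07 on the average. The shares above 0 were 96% against 76.5% with DILP2, 100% against 78.8% with DILP5 and 100% against 80.4% on the average. The called shares in this range were 12% (3 of 25) against 5.03% with DILP2, 8% (2 of 25) against 6.70% with DILP5 and 12% (3 of 25) against 9.497% on the average.

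**Figure D4:**
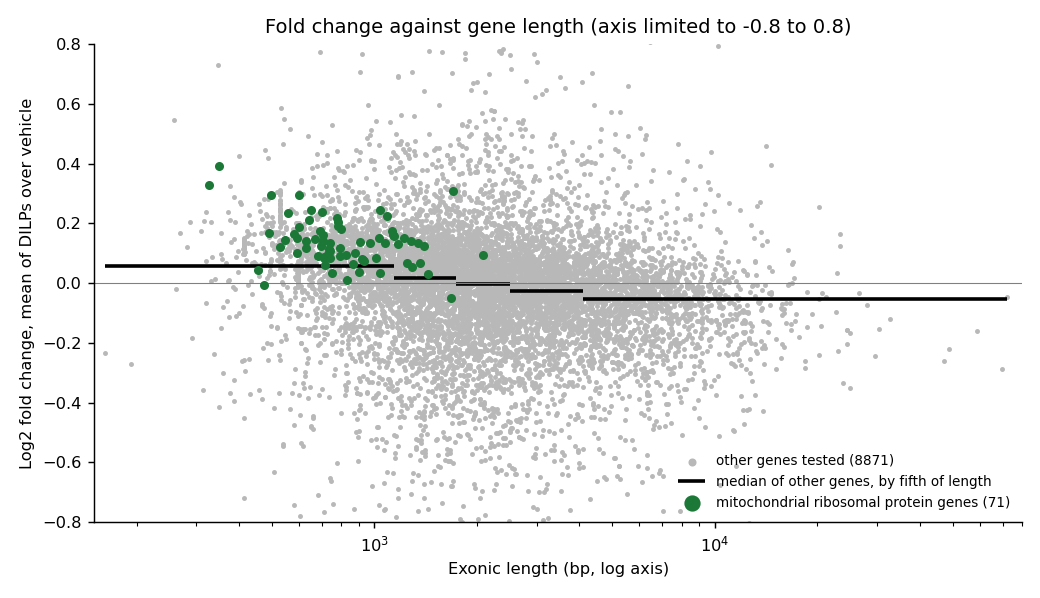
Log2 fold change of the average of DILP2 and DILP5 over vehicle against exonic length in bp (log axis) for the 71 mitochondrial ribosomal protein genes (green) and 8871 other genes tested (grey), with the median of the other genes in each of 5 classes of length (black lines). The vertical axis is limited to a narrow range around 0, which leaves out a few grey points. The black lines fall from 0.06 for the shortest class to -0.05 for the longest, and most green points are above the line of their own class.

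When the trend with length was removed from each library before the test, 5 of the 71 genes were called higher with DILP2, 2 with DILP5 and 5 on the average, with medians of 0.07, 0.05 and 0.06. These were mRpL19, mRpL21, mRpL36, mRpL49 and mRpS22 with DILP2, mRpL1 and mRpL21 with DILP5, and mRpL1, mRpL19, mRpL21, mRpL39 and mRpS22 on the average. In the same fit 6.41% of all genes were higher with DILP2, 6.97% with DILP5 and 8.89% on the average. The called share of the 71 was thus near that of all genes with DILP2, and below it with DILP5 and on the average. When trends with length and with level were both removed, mRpL21 and mRpL36 were higher with DILP2, and only mRpL21 was with DILP5 and on the average. The medians were then 0.05 with DILP2, 0.03 with DILP5 and 0.04 on the average, and 54, 53 and 54 of the 71 genes were above 0. Of all genes 4.48% were higher with DILP2, 5.04% with DILP5 and 6.45% on the average in this fit. The called share of the 71 was below that of all genes in each of these comparisons. mRpL21, one of the longest of the 71, had log2 fold changes of 0.36 after DILP2 (adjusted p = 0.0072) and 0.34 after DILP5 (adjusted p = 0.0097) in this fit. The other calls of the TMM fit were thus lost in this fit, and its medians were below those of the TMM fit. The trend with length may itself hold responses of short genes, and how much of it was technical was not tested.

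**Figure D5:**
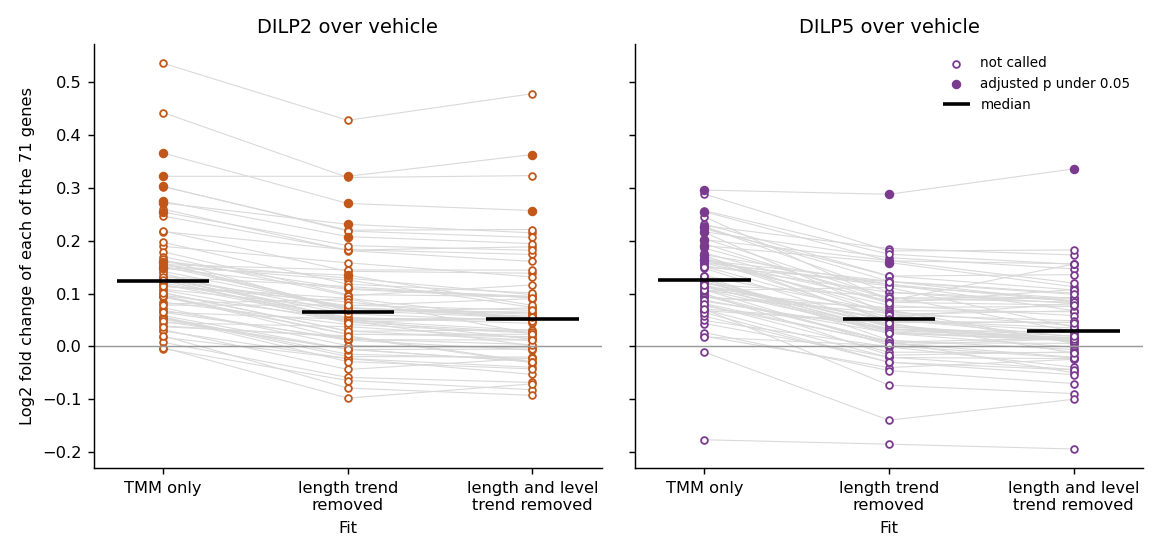
Log2 fold change over vehicle of each of the 71 genes with DILP2 (left) and DILP5 (right) in the TMM fit, in the fit with the length trend removed from each library, and in the fit with the length and level trends removed. Grey lines join the values of a gene, filled circles had an adjusted p under 0.05, and black bars are medians. The medians go down from 0.12 to 0.05 with DILP2 and from 0.13 to 0.03 with DILP5 over the 3 fits, and mRpL21 is a filled circle in each.

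Some of the 71 genes share sequence with neighbours, which could move reads between them, since the handling of strand in the counting is not given in the sources used here. For 8 of them more than 20% of the exons overlap another counted gene in the BDGP6 annotation: mRpL13, mRpL17, mRpL48, mRpL53, mRpS9, mRpS14, mRpS21 and mRpS24. mRpL53 lies wholly within exons of CG33155 on the same strand. Without these 8 genes, 7 of 63 were higher with DILP2, 8 with DILP5 and 14 on the average, and the medians stayed at 0.12, 0.13 and 0.13.

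The name rule misses some subunits of the same ribosome, and 4 of these were examined: tko (the relative of bacterial S12, named for the mutant technical knockout), bonsai (the relative of S15), the protein listed as Rlc1 (mRpL47 in later annotation) and mRpL45, which has no name in the table. bonsai had 38.4, 35.7 and 37.3 CPM with DILP2 and 38.9, 38.1 and 40.8 CPM with DILP5, against 32.8, 35.996 and 33.6 CPM with vehicle. The DILP5 libraries of bonsai were all above vehicle, with a log2 fold change of 0.20 ± 0.05 (adjusted p = 0.027), while with DILP2 it was 0.12 ± 0.05 (adjusted p = 0.18). For tko the log2 fold change was 0.08 ± 0.09 with either DILP. All 4 were above 0 with each DILP, with medians of 0.11 with DILP2 and 0.10 with DILP5, close to those of the 71 genes, and bonsai alone was called (1 of 4 with DILP5 and on the average, 0 of 4 with DILP2, where 2 had an unadjusted p under 0.05 and DESeq2 called 0).

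Other genes that mitochondrial translation needs were read from lists. Of 9 translation factors, 2 were higher with DILP2, 1 with DILP5 and 3 on the average, against 5.33%, 6.28% and 8.02% of all genes. None was lower, and their median log2 fold changes were 0.03 after DILP2 and 0.05 after DILP5. Above 0 were 6 of the 9 with DILP2 and 5 with DILP5. mIF2 (CG12413 in the table), which places the initiator tRNA, had 26.9, 26.4 and 28.1 CPM with DILP2 and 26.3, 26.4 and 28.1 CPM with DILP5, against 21.4, 21.8 and 23.8 CPM with vehicle. The log2 fold change of mIF2 was 0.28 ± 0.06 after DILP2 (adjusted p = 0.013) and 0.27 ± 0.06 after DILP5 (adjusted p = 0.014). mEFG1, which moves the ribosome along the mRNA, had a log2 fold change of 0.19 ± 0.05 after DILP2 (adjusted p = 0.049) and 0.17 ± 0.05 after DILP5 (adjusted p = 0.059). The third on the average was mEFTu1, which delivers tRNA, at 0.11 ± 0.04 (adjusted p = 0.04996). These factors are longer than the ribosomal genes, with a median of 1711 bp.

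The tRNA synthetases of mitochondria and the genes that transcribe and maintain mitochondrial DNA showed no calls in the edgeR fit. Of 15 synthetases 0 were called, and their median log2 fold changes were -0.01 after DILP2 and -0.02 after DILP5, at a median length of 2552 bp. At an unadjusted p under 0.05, 2 synthetases were higher with DILP2, and 1 was higher and 1 lower with DILP5, and DESeq2 called 0. Of 12 genes for mitochondrial DNA expression 0 were called, with medians of 0.07 with DILP2 and 0.06 with DILP5 at a median length of 1747 bp. Of these, 1 with DILP2 and 2 with DILP5 were higher at an unadjusted p under 0.05, and DESeq2 called 0 with DILP2 and 1 with DILP5. The 88 cytosolic ribosomal protein genes that passed the filter had medians of 0.13 with DILP2 and 0.14 with DILP5, at a median length of 936 bp. Of these 88, 15 were higher with DILP2, 10 with DILP5 and 23 on the average, against 5.33%, 6.28% and 8.02% of all genes. These shares were no smaller than those of the 71 mitochondrial ribosomal genes (11.3%, 11.3% and 21.1%). With length and level trends removed, the medians of the cytosolic genes were -0.01 with each DILP. In that fit 0 were higher with either DILP, 1 was lower with DILP2, and on the average 2 were higher and 1 lower. The trends were fitted over all genes with a length, these genes among them, so their medians near 0 can come partly from the fit. The difference between the cytosolic and the mitochondrial ribosomal genes was not tested.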

How the data were processed

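The members and the gene lists were chosen with earlier results of these data known. The authors mapped single-end reads to dm3 with Tophat and Bowtie and deposited raw counts per gene from easyRNASeq, not normalized, with the 9 libraries apart; the annotation release, versions, and handling of strand and of multiply mapped reads are not given in the sources used here. Reads of paralogs and overlapping genes may therefore be shared. The libraries held 28365854 to 38557706 counts; members had from 48 to 6600 counts in a library, so counting error adds to the spread between libraries for the lowest.

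Counts were analysed in R 4.3.3 with edgeR 4.0.16 (limma 3.58.1): filterByExpr for the 3 groups, TMM, quasi-likelihood test over 9 libraries without a block, Benjamini-Hochberg adjustment over 8981 genes, threshold 0.05. Each standard error was the absolute log2 fold change over the square root of F. CPM are TMM-scaled; log2 CPM used a prior count of 2. Intervals and SEs assume the fitted spread. Exonic lengths and chromosome arms come from the BDGP6 annotation; 13864 of 13937 IDs had a length. No coordinates are printed, because the files use dm3. Length or level trends were removed by a loess (span 0.3) of each library's log2 CPM minus the gene mean, entered as offsets. Libraries with the same condition differed beyond counting noise (chi-square per degree of freedom of at least 7.53 over all pairs), so none was the same library sequenced again. Whether they came from separate cultures is not shown by this.

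Genes named with values are the 8 largest average rises among called genes, all other called genes, the 3 highest and 3 lowest per kb, the 3 with the smallest p between the peptides, mRpS5, mRpL12, mRpS29, mRpS30, tko, bonsai, 4 regulators and, from other lists, up to 3 called genes each of largest absolute change; mRpL28, mRpL53, Rlc1, mRpL45, elav and genes overlapping the members were added after their values were seen. The alternatives comprised each library left out, DESeq2 1.42.0 and its size factors, unscaled library sizes, no low-count filter or a minimum of 10 counts per library, only the compared groups, the replicate block, trend removal, and a threshold of 0.01; those named as added were chosen after seeing the data. Figures used matplotlib 3.10.9.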

Additional observations from a re-analysis of the deposited data

How the results depend on the processing

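In 22 alternatives for each DILP (21 for their average), 0 of the 71 genes were lower. The median log2 fold change over vehicle was above 0 in each alternative that gave one. The number of genes higher was less stable. With DILP2, DILP5 and the average it was 3, 3 and 4 with library size only in place of TMM; 5, 8 and 14 with no filter on low counts; and 0, 0 and 3 at an adjusted p under 0.01. With the length trend removed it was 5, 2 and 5, and with length and level removed 2, 1 and 1. The medians were then 0.066, 0.052 and 0.055, and 0.052, 0.029 and 0.041. Without the 3 libraries lettered C, chosen after seeing the data, it was 3, 0 and 5. Leaving out 1 library gave 1 to 10 genes with DILP2, 0 to 9 with DILP5 and 2 to 16 on the average, and medians of 0.09 to 0.16, 0.10 to 0.16 and 0.12 to 0.16. For library size only, no filter, the threshold of 0.01 and the fits without libraries, the share of all genes is not given here. Those counts do not show whether calls were lost among all genes alike. The median of DILP5 over DILP2 was between -0.02 and 0.04 in all its alternatives.

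Deviations from the group means correlated at 0.14 to 0.16 between libraries lettered A, -0.04 to 0.10 for B and 0.29 to 0.35 for C. Libraries of different letters correlated at -0.29 to 0.19. The libraries lettered C were thus more alike than any of different letters, whereas the values for A and B lay within that range. Pairing by letter was therefore seen for C and not shown for A and B, and the main fit had no block. With the letter as a replicate block, 14 genes were higher with DILP2, 13 with DILP5 and 21 on the average, and of all genes 9.58%, 10.9% and 12.7% were. The replicate block with length and level trends removed gave 4, 1 and 3 genes and medians of 0.051, 0.030 and 0.040. Of all genes, 7.59% were higher with DILP2, 8.02% with DILP5 and 9.79% on the average in that fit. The share of mitochondrial ribosomal genes called higher was below that of all genes in each of these comparisons. With the length trend alone removed beside the replicate block, added after seeing the data, the medians were 0.064, 0.052 and 0.056.

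Of 1909 values of single named genes under the alternatives, 256 lost their call, 33 gained one and 0 changed direction after a call. The causes of these differences were not tested, except that fits without a library have fewer samples. With a median standard error of 0.07, single differences near the median of 0.12 to 0.13 were mostly beyond what 3 libraries a condition resolve.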

Other observations

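The products of mitochondrial translation assemble with nuclear-encoded subunits of the respiratory chain and ATP synthase. Of 74 such genes tested, 0 were higher with DILP2, 3 with DILP5 and 6 on the average of the DILPs. Of all genes tested 5.33%, 6.28% and 8.02% were higher, so these counts were near or below the share of all genes. Lower with DILP5 and on the average was 1, ND-MLRQ (CG32230 in the table). With DILP2, 10 were higher and 1 lower at an unadjusted p under 0.05, where 11.9% of all genes were higher. DESeq2 called 3 higher, and 7.59% of all genes with an adjusted p. Their median log2 fold changes were 0.07 for DILP2 and 0.09 for DILP5, at a median length of 891 bp.

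Among genes known to govern mitochondrial gene sets, srl (Spargel, the fly relative of PGC-1) had 206, 210 and 201 CPM with DILP2 and 225, 219 and 212 CPM with DILP5, against 146, 151 and 149 CPM with vehicle. Its log2 fold change was 0.47 ± 0.04 after DILP2 (adjusted p = 2.4e-05) and 0.56 ± 0.04 after DILP5 (adjusted p = 6.1e-06), and no library overlapped. ewg, the relative of NRF1, was lower with DILP2, at -0.18 ± 0.05 (adjusted p = 0.044), and had -0.14 ± 0.05 after DILP5 (adjusted p = 0.091). Ets97D, the relative of GABPA, had log2 fold changes of 0.03 for DILP2 and 0.11 for DILP5, and dm (Myc) had 0.29 ± 0.10 after DILP2 (adjusted p = 0.097) and 0.18 ± 0.10 after DILP5 (adjusted p = 0.29). Values of regulators and ribosomal genes stand side by side here, and a link between them was not tested.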
